A study of Mus musculus with 6 samples.

Results

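Red cell genes are described here in mouse RNA-seq libraries that the labels name intervertebral disc: Hbb-bs, Hbb-bt, Alas2, Slc4a1, Bpgm and Tent5c, 6 genes of which 4 received a value. They were chosen by symbol with their measured counts across these same libraries in view, so their levels and fold changes are a description. Each gene was measured by summing the counts of the deposited rows whose intervals, read as GRCm38 positions, had at least 80% of their exon bases, and 100 or more bases, on that gene. The same rule placed rows on 11102 genes in all. The libraries came from C57BL/6 mice, 3 labelled intervertebral disc degeneration (degeneration 1 to 3) and 3 labelled wild type (wild type 1 to 3), from frozen disc tissue. The labels do not say how degeneration arose, at what age the discs were taken, or whether each library was a separate animal (the series' design text speaks of retina and of mice 21 days old, against the sample labels), so p-values measure the spread between libraries, which may be technical. Each library held 3119215 to 4009562 counts, so a count of 3, the floor used for detection, stood at 0.748 to 0.962 CPM (a count divided by its library's total, on the customary scale of sequencing counts).

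Red cells lose their nucleus but carry leftover messenger RNA when young, most of it for haemoglobin, so a solid tissue that still holds blood carries some of this RNA. Haemoglobin joins alpha and beta globin chains with haem. Hbb-bs and Hbb-bt encode the adult beta chains of this mouse strain. Alas2 encodes the erythroid aminolevulinate synthase that opens haem synthesis. Slc4a1 encodes band 3, the chloride and bicarbonate exchanger of the red cell membrane, and a shorter form of the same protein serves acid-secreting intercalated cells of the kidney collecting duct. Bpgm encodes bisphosphoglycerate mutase, whose product lowers the oxygen affinity of haemoglobin. Tent5c encodes a poly(A) polymerase known from maturing red cells and from plasma cells. In bulk RNA, fewer red cells and less RNA per cell cannot be told apart.

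The libraries did not sort by label. Degeneration 1 resembled wild type 1 to 3 (Pearson's r of 0.981 to 0.987 across rows, on log2(CPM + 1)), and degeneration 2 and 3 resembled each other (0.988) and not the rest (0.878 to 0.884). Located heart muscle markers (8 of 13) summed to 41832 CPM in degeneration 1, 52.4 and 51.0 CPM in degeneration 2 and 3, and 38702 to 40843 CPM in wild type. Located kidney tubule markers (7 of 10) summed to 67.1 CPM in degeneration 1, 10605 and 8462 CPM in degeneration 2 and 3, and 47.0 to 61.5 CPM in wild type. Of the 7 located disc and cartilage markers, Krt19 had no count in any library and Acan stood at 0.499 CPM or less, while the list summed to 22.0 to 42.6 CPM in degeneration and 28.0 to 31.7 CPM in wild type. Sox5 was the highest of the 7, at 10.1 to 29.5 CPM over the 6 libraries, followed by Chad at 2.80 to 7.69 CPM, and Col11a2, Cnmd and Col9a3 lay between 0.641 and 9.98 CPM. Acan, the main cartilage proteoglycan, and Krt19, a nucleus pulposus marker, were thus at or near 0, while other markers of the list were detected at low levels. No library pair agreed within sampling noise.

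The position of the counted rows sets what each value can show, so the counted sequence is given for the globins. Hbb-bs (ENSMUSG00000052305.6) lies on the minus strand at chr7:103826534-103828096, and its row, which the files name Olfr648, covers 508 of its 768 exon bases from 103826805 upward. That span takes in exons 1 and 2 and the intron between them and runs on past the gene, and leaves out exon 3 (103826534 to 103826793). Hbb-bt (ENSMUSG00000073940.3) lies beside it at chr7:103812524-103813996. Exon 2 is identical in both genes over its 223 bases (chr7:103827448-103827670 in Hbb-bs and chr7:103813439-103813661 in Hbb-bt) and is shown because it is 223 of the 508 exon bases counted.
Exon 2 of Hbb-bs and of Hbb-bt: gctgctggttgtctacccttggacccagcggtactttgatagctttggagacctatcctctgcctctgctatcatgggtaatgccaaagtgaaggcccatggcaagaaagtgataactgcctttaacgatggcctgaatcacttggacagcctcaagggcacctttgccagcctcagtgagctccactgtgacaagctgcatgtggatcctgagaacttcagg
The annotated coding sequences, 441 bases each without the stop codon, differ at 1 base. It falls in exon 3, outside the counted row, and is in capitals in the stretches chr7:103826678-103826706 and chr7:103812669-103812697.
Hbb-bs: gtggctggagtggcCgctgccctggctca
Hbb-bt: gtggctggagtggcTgctgccctggctca
Read pairs placed at several sites were left out of the deposited counts by the counting tool's default, so a pair lying wholly in exon 2 cannot be given to one gene, and the Hbb-bs value is uncertain as a level of that gene alone.

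Hbb-bt received no value, since its nearest row covered 56 of its 703 exon bases. That row held no count in degeneration 1 to 3 and 0, 1 and 2 counts in wild type 1 to 3. No row lay on exons of Bpgm (ENSMUSG00000038871.5, chr6:34476207-34505613, plus strand), which therefore has no value either. Alas2 (ENSMUSG00000025270.13, chrX:150547375-150570638, plus strand) was counted over 146 of 2403 exon bases, Slc4a1 (ENSMUSG00000006574.15, chr11:102348824-102366203, minus strand) over 1308 of 4891, and Tent5c (ENSMUSG00000044468.14, chr3:100451628-100489324, minus strand) over 3966 of 6097. The Tent5c row is the one nearest the threshold among those counted, with 89.9% of its exon bases on the gene and others on its neighbour Man1a2, so its value is uncertain at least to that extent. All 4 rows also hold bases outside annotated exons, and their counts cover the whole row. Exon bases made up 509 of 2929 in the Hbb-bs row, 146 of 387 for Alas2, 1308 of 5454 for Slc4a1 and 4410 of 7969 for Tent5c. The part of counts from outside exons was not tested. The rows that carry these symbols in the files lie elsewhere and held between 0 and 20 counts in a library for all 6 genes.

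Beta globin was the most abundant of the 4 measured genes by mean CPM over the 6 libraries and had the widest span in CPM, though not as a ratio. In degeneration 2 and 3, Slc4a1 (154 and 127 CPM) exceeded Hbb-bs. Hbb-bs stood at 1724, 135 and 105 CPM in degeneration 1 to 3, against 283, 1563 and 4245 CPM in wild type 1 to 3. Wild type 3 was highest, degeneration 1 and wild type 2 lay close together, and wild type 1 was nearer to degeneration 2 and 3 than to the other wild type libraries. The groups overlapped, with means of 655 ± 926 CPM in degeneration and 2030.4 ± 2022 CPM in wild type (SD, n = 3 each), so the spread within each group was close to its mean or above it. In wild type 3 the row took 0.425% of all counts (Wilson 95% interval 0.418% to 0.432%), and in degeneration 3 it took 0.0105% (0.00941% to 0.0117%). Intervals on counts reflect counting alone, because sequenced fragments carried no molecular tags and copies of 1 molecule may be counted more than once. No neighbouring pair of libraries in the order of levels had overlapping exact 95% Poisson intervals. The whole row's CPM divided by its kilobases of covered exon averaged 2643 for Hbb-bs over the 6 libraries, against 188 for Alas2, 38.6 for Slc4a1 and 37.0 for Tent5c. The rows also hold bases outside exons, to unlike extents, so these figures do not rank the genes by density. Other globins could hardly be followed: of 10 in the list only Hbb-bs, Hbb-bh2 and Hbb-y were located, Hbb-bh2 had no count, and Hbb-y, an embryonic chain, had 2 counts, both in wild type 3.

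**Figure D1:**
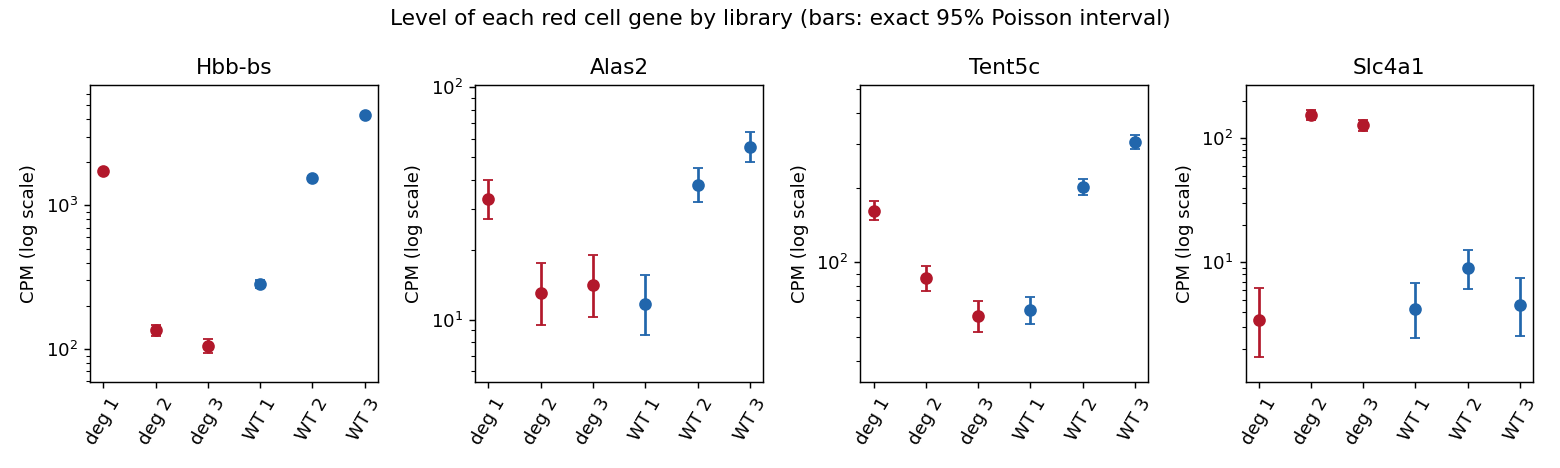
Level of each measured red cell gene in CPM on a log axis, 1 point per library with its exact 95% Poisson interval; degeneration libraries (deg, red) stand left of wild type libraries (WT, blue). Hbb-bs, Alas2 and Tent5c are highest in wild type 3, whereas Slc4a1 is highest in degeneration 2 and 3, at 154 and 127 CPM.

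Alas2 was also highest in wild type 3, at lower counts. It stood at 33.1, 13.0 and 14.1 CPM in degeneration 1 to 3, against 11.7, 38.0 and 55.2 CPM in wild type 1 to 3. Wild type 3 was above all others, wild type 2 and degeneration 1 overlapped in their counting intervals, and degeneration 3, degeneration 2 and wild type 1 could not be told apart by theirs. A further Alas2 row, with 52 exon bases and so outside the rule, held 43.8, 11.3 and 6.73 CPM in degeneration 1 to 3 and 15.2, 54.5 and 90.7 CPM in wild type 1 to 3. It too was highest in wild type 3, with wild type 2 next and degeneration 1 after it. The group means of the counted row were 20.1 ± 11.3 CPM in degeneration and 35.0 ± 21.9 CPM in wild type (SD, n = 3 each).

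Tent5c followed Alas2 closely. It stood at 162, 86.3 and 60.6 CPM in degeneration 1 to 3, against 63.8, 202 and 307 CPM in wild type 1 to 3. The order was again wild type 3, wild type 2, degeneration 1 and then the other three, of which wild type 1 and degeneration 3 overlapped in their counting intervals. Tent5c counts per Alas2 count were 4.90, 6.62 and 4.29 in degeneration 1 to 3, against 5.45, 5.30 and 5.56 in wild type 1 to 3, where both levels changed more than 4-fold. The exact 95% intervals of all 6 ratios overlapped, the narrowest being 4.74 to 6.54 in wild type 3. Hbb-bs did not keep such a ratio: its counts per Alas2 count were 52.2, 10.3 and 7.43 in degeneration 1 to 3, against 24.1, 41.1 and 77.0 in wild type 1 to 3. Degeneration 2 and 3 thus had fewer Hbb-bs counts for a given Alas2 count than any other library, with intervals of 7.60 to 14.4 and 5.41 to 10.4 that lay below those of the rest.

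**Figure D2:**
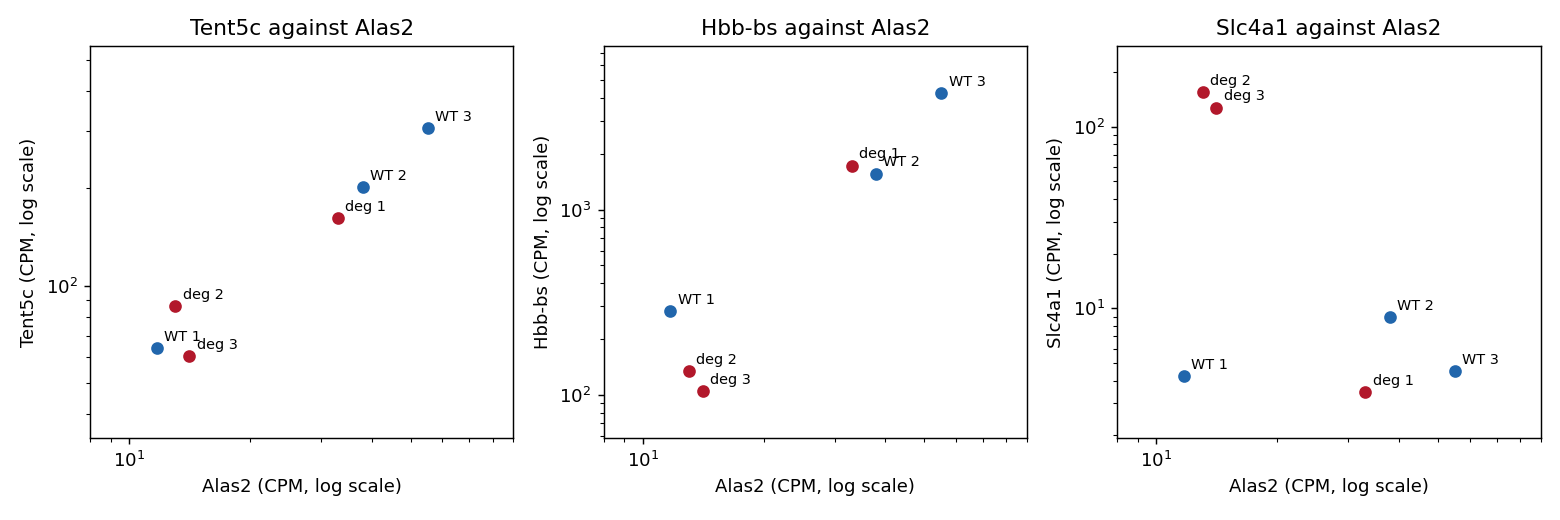
Tent5c, Hbb-bs and Slc4a1 against Alas2, each in CPM on log axes, 1 point per library (deg, red; WT, blue). Tent5c rises in step with Alas2, Hbb-bs rises more steeply, and Slc4a1 is high in degeneration 2 and 3 (154 and 127 CPM), with 8.95 CPM or less elsewhere.

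Among the 5411 loci with a mean of at least 5 CPM, each gene's profile was compared by the root mean square difference of log2(CPM + 1), centred on its mean over the 6 libraries. By this measure Tent5c was the nearest locus to Alas2 (0.19), and Alas2 the nearest to Tent5c, among 5410 others. Outside the fixed gene lists, the nearest to Alas2 were Reln (0.34), Bace2 (0.47), Gm12377 (0.48) and P2ry14 (0.48). Reln stood at 10.1, 3.48 and 5.13 CPM in degeneration 1 to 3, against 4.99, 7.55 and 16.3 CPM in wild type 1 to 3. For Hbb-bs the nearest were Gm8652 (0.65), Gata4 (0.70), Gnb3 (0.76) and Gm19277 (0.82). Gata4, a transcription factor of heart muscle, stood at 15.7, 0 and 0 CPM in degeneration 1 to 3, against 3.74, 7.27 and 14.5 CPM in wild type 1 to 3. These profiles share libraries and depth. Hbb-bs and Alas2 differed by 1.25, a distance at which Alas2 ranked 122 of 5410 in likeness to Hbb-bs (Tent5c ranked 103) and Hbb-bs ranked 4051 of 5410 in likeness to Alas2.

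The span between wild type libraries was unusual for Hbb-bs, Alas2 and Tent5c. Wild type 3 exceeded wild type 1 15-fold for Hbb-bs (exact 95% interval 14.1 to 15.9), 4.71-fold for Alas2 (3.40 to 6.63) and 4.80-fold for Tent5c (4.18 to 5.53). For Slc4a1 the ratio was 1.07 (0.496 to 2.27). Of 4981 loci with a wild type mean of at least 5 CPM, 10 (0.201%) were 4-fold or more higher in wild type 3 than in wild type 1, a limit chosen after the values were seen, and these 3 genes are among them because they were listed with the values known. By highest over lowest wild type library, 47 loci (0.944%) passed 4-fold, and Hbb-bs ranked 5, Tent5c 32 and Alas2 33 of 4981. Markers of other blood cells differed among themselves in this respect. The 6 located monocyte and macrophage markers summed to 163, 135 and 134 CPM in degeneration 1 to 3. In wild type 1 to 3 they summed to 270.4, 226 and 163 CPM, so wild type 3 was lowest within wild type. Csf3r, the neutrophil growth factor receptor, was likewise lowest of the wild type libraries in wild type 3, with 5.04, 5.21 and 6.41 CPM in degeneration 1 to 3 and 10.2, 9.23 and 7.54 CPM in wild type 1 to 3. Gp1ba, of the platelet receptor for von Willebrand factor, held 217, 71.0 and 58.3 CPM in degeneration 1 to 3, and 149, 134 and 165 CPM in wild type 1 to 3. The platelet markers Itga2b and Clec1b were highest in wild type 2. Itga2b held 2.20, 2.03 and 3.85 CPM in degeneration 1 to 3, and 3.99, 7.27 and 5.12 CPM in wild type 1 to 3. Clec1b held 5.04, 1.45 and 3.21 CPM in degeneration 1 to 3, and 7.23, 10.9 and 8.44 CPM in wild type 1 to 3. Gp6, a platelet collagen receptor named after its values were seen, held 1.57, 0.290 and 0.641 CPM in degeneration 1 to 3, and 0.998, 4.19 and 5.73 CPM in wild type 1 to 3. Alone of the 4 located platelet markers, it had the wild type libraries in the order of Alas2, on 4 to 19 counts. Blk, a kinase best known from B cells, held 115, 1.45 and 1.92 CPM in degeneration 1 to 3, and 97.3, 133 and 162 CPM in wild type 1 to 3, the same wild type order over a smaller span, while the B cell surface marker Ms4a1 was at 1.28 CPM or less throughout.

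Because Hbb-bs, Alas2 and Tent5c moved together within wild type, the 250 bases before their RefSeq starts (GRCm38.p6) are shown, each read along its own strand. Capitals mark GATAA, the core of the motif bound by the erythroid factor GATA1, and CACCC, the core bound by erythroid Kruppel-like factors, searched on both strands (reverse forms TTATC and GGGTG).
Hbb-bs, chr7:103827929-103828178: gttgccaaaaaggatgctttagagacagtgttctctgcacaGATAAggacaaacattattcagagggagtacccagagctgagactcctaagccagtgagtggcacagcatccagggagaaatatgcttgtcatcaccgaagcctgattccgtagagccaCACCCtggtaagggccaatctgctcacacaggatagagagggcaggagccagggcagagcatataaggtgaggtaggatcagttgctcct
Alas2, chrX:150547167-150547416: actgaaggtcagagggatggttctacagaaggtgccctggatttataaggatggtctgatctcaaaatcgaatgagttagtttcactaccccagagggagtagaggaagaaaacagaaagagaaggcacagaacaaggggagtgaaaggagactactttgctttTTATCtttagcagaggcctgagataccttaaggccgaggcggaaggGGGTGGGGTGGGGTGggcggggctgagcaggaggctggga
Tent5c, chr3:100489193-100489442: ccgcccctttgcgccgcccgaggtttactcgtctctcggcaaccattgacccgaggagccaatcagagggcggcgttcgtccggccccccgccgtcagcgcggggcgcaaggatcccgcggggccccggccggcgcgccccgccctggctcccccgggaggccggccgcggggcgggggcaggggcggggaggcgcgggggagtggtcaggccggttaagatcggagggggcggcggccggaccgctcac
Hbb-bs and Alas2 each held GATAA 1 time, Hbb-bs held CACCC 1 time and Alas2 3 times, and Tent5c held neither. Of the 32851 promoter windows of this length, 22.6% held GATAA and 52.0% held CACCC. A match is a description of letters in the window, and promoter sequences were matched for 5 of the 6 genes.

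Slc4a1 went the other way. It stood at 3.46, 154 and 127 CPM in degeneration 1 to 3, against 4.24, 8.95 and 4.52 CPM in wild type 1 to 3. Degeneration 2 and 3 were far above the rest, while degeneration 1 lay below every wild type library with a counting interval that overlapped theirs (11 counts, against 15 to 32). The degeneration group mean, 95.1 ± 80.5 CPM, therefore rests on 2 of its 3 libraries, against 5.90 ± 2.64 CPM in wild type (SD, n = 3 each). Degeneration 2 exceeded degeneration 1 44.6-fold (24.7 to 89.9). These are the libraries in which kidney tubule markers summed to 10605 and 8462 CPM, and in which Slc12a3, the sodium chloride cotransporter of the distal tubule, stood at 1440 and 1019 CPM against 13.7 to 20.2 CPM elsewhere. The part of kidney RNA in the Slc4a1 values was not tested. Slc4a1 was far from Hbb-bs, Alas2 and Tent5c in profile, which ranked 5299, 4853 and 4868 of 5410 in likeness to it.

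Across the labelled groups, edgeR's quasi-likelihood test on all 6 libraries called 0 of 5591 loci (0%) at an adjusted p under 0.05, and 1098 loci (19.6%) had an unadjusted p under 0.05. All 4 measured genes passed the filter on low counts and 0 were called. Their log2 fold changes, degeneration over wild type, were -1.63 ± 1.5 (SE) for Hbb-bs, -0.93 ± 0.73 for Alas2, -1.02 ± 0.71 for Tent5c and 3.65 ± 1.17 for Slc4a1. The groups overlapped in CPM for each of the 4. Over all loci tested 20.9% did not overlap, and 4 genes are too few to tell from that share. Without degeneration 1 the log2 fold changes were -4.51 ± 0.92, -1.76 ± 0.53, -1.79 ± 0.52 and 4.17 ± 0.26 in the same order, and 4 of 4 were called, 1 higher and 3 lower, in a fit that called 53% of 6177 loci (26.9% higher and 26.1% lower). The groups of that fit were apart in CPM for Hbb-bs and Slc4a1 only. Alas2 in wild type 1 (11.7 CPM) lay below degeneration 2 and 3 (13.0 and 14.1 CPM). Tent5c in wild type 1 (63.8 CPM) lay below degeneration 2 (86.3 CPM). In that fit the groups also differ in the heart and kidney markers given above, whose part in these values was not tested. Without wild type 3 the changes were -0.50 for Hbb-bs, -0.45 for Alas2 and -0.52 for Tent5c, nearer to 0 for each than with all 6 libraries.

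The wider red cell lists hold 84 genes in 7 roles, of which 36 were located, 21 were tested and 0 were called (21 of 21 missed the threshold, with 5 at an unadjusted p under 0.05). Their median log2 fold change was -0.48, against 0.00 over all loci tested. The located genes did not behave as one group across libraries. Haem synthesis genes beyond Alas2 varied less between libraries. Alas1, the synthase of other tissues, stood at 81.5, 65.2 and 45.5 CPM in degeneration 1 to 3 and 74.3, 90.9 and 63.3 CPM in wild type 1 to 3. Uros, the uroporphyrinogen synthase, averaged 19.2 ± 2.27 CPM in degeneration and 16.6 ± 2.69 CPM in wild type, and Abcb10, a mitochondrial transporter, 34.7 ± 4.86 CPM in degeneration and 27.6 ± 4.93 CPM in wild type (SD, n = 3 each).

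Genes of the red cell membrane and its skeleton divided by library. Sptb, beta spectrin, which is also made in muscle, stood at 107, 10.1 and 11.9 CPM in degeneration 1 to 3, against 82.1, 91.7 and 94.7 CPM in wild type 1 to 3. Tmod1, tropomodulin 1, which caps actin filaments in red cells and in heart muscle, stood at 549, 7.82 and 10.3 CPM in degeneration 1 to 3, against 558, 516 and 508 CPM in wild type 1 to 3. Sptb and Tmod1 were thus low where the heart muscle markers were low (52.4 and 51.0 CPM in sum), and in wild type 1 they lay near their wild type 2 levels, unlike Hbb-bs. The part of heart RNA in their values was not tested. Xk, a membrane protein, stood at 7.87, 2.32 and 1.28 CPM in degeneration 1 to 3, against 7.23, 6.99 and 6.93 CPM in wild type 1 to 3. Epb41, protein 4.1 of the skeleton, stood at 161, 376 and 309 CPM in degeneration 1 to 3, against 182, 125 and 168 CPM in wild type 1 to 3. Ank1, Rhag, Ermap and Add2 stayed under 5 CPM in every library.

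**Figure D3:**
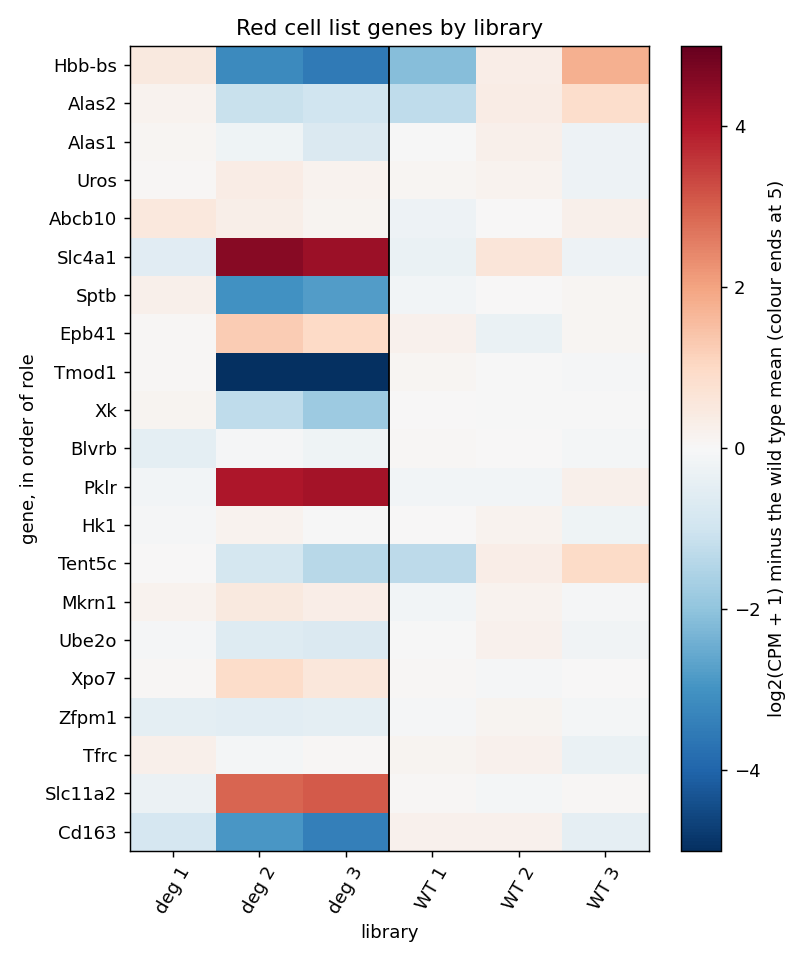
Genes of the red cell lists with a mean of at least 5 CPM (rows, ordered by role), as log2(CPM + 1) minus the wild type mean, in each library (columns; deg left of WT). Hbb-bs, Alas2 and Tent5c vary among the wild type libraries, while Tmod1, Slc4a1, Pklr and Slc11a2 stand apart in degeneration 2 and 3.

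Red cell enzymes, maturation genes and iron genes differed from each other in pattern. Pklr, the pyruvate kinase of liver and red cells, which the kidney also makes, stood at 0, 16.8 and 18.3 CPM in degeneration 1 to 3, against 0, 0 and 0.301 CPM in wild type 1 to 3. Hk1, a hexokinase, averaged 142 ± 11.7 CPM in degeneration and 140.1 ± 19.0 CPM in wild type, and Blvrb, a biliverdin reductase, 13.2 ± 2.04 CPM in degeneration and 15.8 ± 0.977 CPM in wild type (SD, n = 3 each). Of the maturation genes, Mkrn1 averaged 34.6 ± 3.84 CPM in degeneration and 27.5 ± 3.42 CPM in wild type, and Ube2o, a ubiquitin ligase of maturing red cells, 32.9 ± 8.86 CPM in degeneration and 45.6 ± 6.47 CPM in wild type (SD, n = 3 each). Neither gene showed the span of Tent5c within wild type. Slc11a2, the iron importer DMT1, stood at 5.67, 61.7 and 68.3 CPM in degeneration 1 to 3, against 7.48, 6.71 and 7.54 CPM in wild type 1 to 3. Tfrc, the transferrin receptor, averaged 139 ± 17.9 CPM in degeneration and 133 ± 25.7 CPM in wild type (SD, n = 3 each).

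Of the 21 tested red cell genes, 1 was higher and 2 were lower with no overlap in CPM between the groups, against 11.5% and 9.35% of all loci tested. Zfpm1, the GATA cofactor FOG1, which red cell precursors need, stood at 65.5, 64.0 and 64.8 CPM in degeneration 1 to 3, against 87.3, 103 and 87.1 CPM in wild type 1 to 3. The difference was -0.71 ± 0.19 on the log2 scale (SE; edgeR adjusted p 0.231, DESeq2 adjusted p 0.0471). Cd163, the macrophage receptor that clears haemoglobin bound to haptoglobin, stood at 12.6, 2.32 and 1.28 CPM in degeneration 1 to 3, against 27.4, 28.0 and 17.2 CPM in wild type 1 to 3, with an adjusted p of 0.253 (edgeR). Macrophage markers differed among themselves: Mrc1 held 39.0, 3.77 and 8.66 CPM in degeneration 1 to 3, and 44.4, 50.1 and 29.8 CPM in wild type 1 to 3, while Csf1r, the most abundant over the 6 libraries, held 61.1, 114 and 96.8 CPM in degeneration 1 to 3, and 68.8, 64.9 and 65.1 CPM in wild type 1 to 3. Lyz2 held 42.5, 6.66 and 10.3 CPM in degeneration 1 to 3, and 122, 79.1 and 46.7 CPM in wild type 1 to 3. The part of macrophage RNA in the Cd163 values was not tested. Xpo7, an exportin of maturing red cells, stood at 40.3, 73.3 and 58.0 CPM in degeneration 1 to 3, against 40.2, 36.6 and 39.2 CPM in wild type 1 to 3, a gap between degeneration 1 and wild type 1 that counting error covers. Of the 9 erythroid regulators in the lists, 3 were located, Zfpm1 among them, and the rest received no value. Hemgn stood at 0.904 CPM or less and Nfe2 at 0.945 to 4.93 CPM.

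Without degeneration 1, 12 of the 19 tested red cell genes other than the listed ones passed the threshold in edgeR (63.2%, against 53% of all loci), 3 of them higher and 9 lower, beside the 26.9% and 26.1% above. Epb41, Pklr and Slc11a2 rose, and those that fell included Alas1, Cd163, Sptb, Tfrc, Tmod1, Ube2o, Xk and Zfpm1. By edgeR, Tmod1 changed by -6.27 ± 0.19 (adjusted p 3.437e-09) on the log2 scale (± SE). Slc11a2 changed by 2.76 ± 0.18 (adjusted p 4.889e-07) and Epb41 by 0.71 ± 0.16 (adjusted p 0.00351) in the same edgeR fit. These genes do not all belong to red cells alone, since Sptb and Tmod1 also serve muscle, and Pklr and Slc11a2 the kidney. DESeq2 on all 6 libraries called 4 of 25 red cell genes (Slc4a1, Pklr and Slc11a2 higher and Zfpm1 lower), against 8.04% of 6506 loci (434 higher and 89 lower). Sptb and Tmod1 received no p-value from DESeq2 and are not among the 25.

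**Figure D4:**
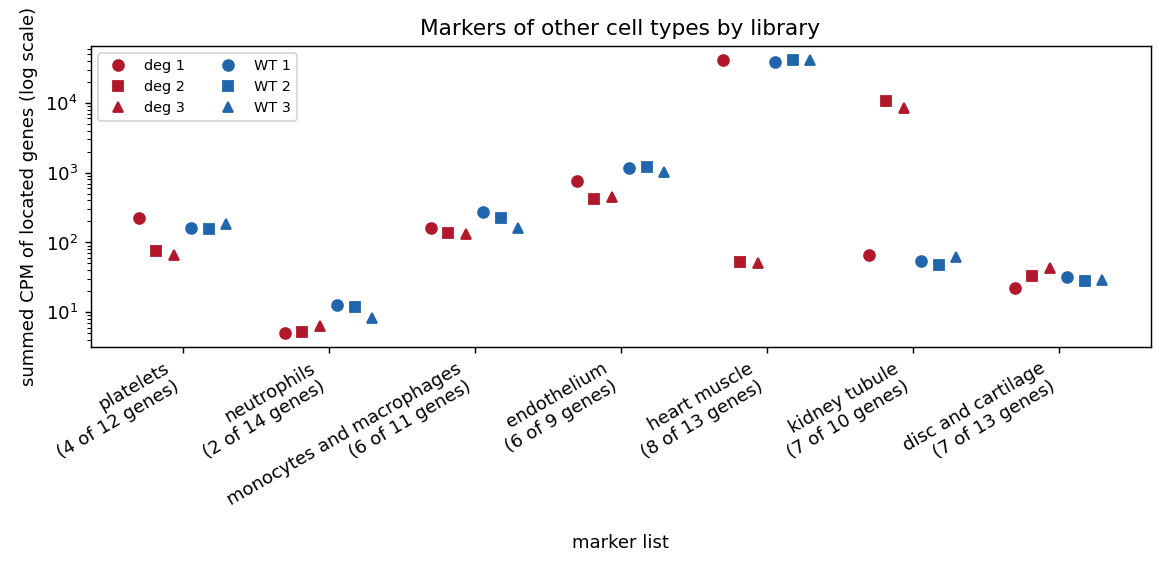
Summed CPM of the located markers of other cell types on a log axis, 1 point per library (deg 1 to 3, red, left of WT 1 to 3, blue). Heart muscle markers sum to 38702 CPM or more except in degeneration 2 and 3, at 52.4 and 51.0 CPM. Kidney tubule markers are high in degeneration 2 and 3 alone.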

How the data were processed

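The 6 deposited files hold raw counts of read pairs per gene name, made by featureCounts 2.0.1 over exons with no strand option and without chimeric or half-mapped pairs, per the file headers; multi-mapping pairs are dropped unless an option that those headers lack is set. The build of the alignments is not given in the sources used here. The design text names BWA and TopHat, and per the submitters' processing notes the names Bowtie 0.12.2, mm8 and mm9 appear, with no step given. Of 53546 rows, 49890 share no base with GRCm38 exons (GENCODE M21) of their own name, so rows were placed by position, read as GRCm38 (bedtools 2.31.1), and 13512 were located. A further table of the series has 12 columns under names that no sample label uses; these were not used, so no FPKM is given for the red cell genes. Groups were taken from the sample titles.

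edgeR 4.0.16 (R 4.3.3) was fitted to all loci with TMM scaling, filterByExpr, no covariate and Benjamini-Hochberg adjustment (threshold 0.05); SE was derived from the test statistic, and the test was tried on simulated counts. TMM factors were 0.887 to 0.961 in wild type and degeneration 1 and 1.18 and 1.19 in degeneration 2 and 3. The genes, lists and tests were chosen with earlier results of these data known. Named were the listed genes, other located red cell list genes averaging 5 CPM or more, the 3 highest genes of other lists where a result touches them, and the 4 loci nearest to Hbb-bs and to Alas2; list members that are not reported here are still in the counts. A few low genes, list examples and the ratios were chosen after values were seen. Alternatives were DESeq2 1.42.0, its size factors, other scalings, filters, a 50% mapping, the replicate block and each library left out. Intervals are exact or Wilson at 95%, computed with Python 3.11.15 and scipy 1.17.1.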

Additional observations from a re-analysis of the deposited data

How the results depend on the processing

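No log2 fold change of Hbb-bs, Alas2, Tent5c or Slc4a1 changed sign under any alternative run. The count of loci past the threshold stayed at 0 under all of them except DESeq2 (523 of 6506) and the fit without degeneration 1. Over the fits that leave out 1 library it ran from 0 to 3271 loci, and the red cell genes called ran from 0 to 4 higher and from 0 to 12 lower, each highest count being the fit without degeneration 1. DESeq2 called 3 red cell genes higher and 1 lower, beside 434 higher and 89 lower over all loci. The fold changes over the same fits ran from -4.51 to -0.50 for Hbb-bs, from -1.76 to -0.45 for Alas2, from -1.79 to -0.52 for Tent5c and from 3.13 to 4.17 for Slc4a1. With library totals alone the median of all loci moved to 0.23 from 0.00. The 50% mapping gave the same rows for the 4 genes. Under the names as deposited, Alas2 averaged 0 CPM and Tent5c 0.349 CPM. Deviations of same-numbered libraries from their group means had r of -0.07, 0.09 and -0.11 for numbers 1 to 3. Degeneration 1 lay so far from degeneration 2 and 3 that this comparison cannot show whether the numbers mark pairs. The main fit did not take them as pairs. The replicate block called 0 loci, and gave Hbb-bs -3.15. Alternatives for FPKM values were not run, as no column of them was used. Slc4a1 in degeneration 1 and wild type rests on 11 to 32 counts, and short covered stretches limit Alas2.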

Other observations

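T cell and vessel markers were also read. Lck, a T cell kinase, stood at 5.04, 16.2 and 12.8 CPM in degeneration 1 to 3, against 6.73, 6.99 and 4.82 CPM in wild type 1 to 3. Endothelial markers (6 of 9 located) summed to 750.3, 416 and 447 CPM in degeneration 1 to 3, against 1163, 1201 and 1020.1 CPM in wild type 1 to 3. Pecam1, a junction protein of vessel lining, averaged 231 ± 81.3 CPM in degeneration and 474 ± 48.5 CPM in wild type (SD, n = 3 each), and its values did not follow those of Hbb-bs among the wild type libraries.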
